A study of Mus musculus with 4 samples.

Results

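The antiviral interferon-stimulated genes described here are 40 genes, chosen by symbol, of the 55450 genes counted in single cells from 4T1 tumours. All 40 symbols matched exactly 1 row of the count table. 4T1 is a mouse mammary carcinoma line that grows in BALB/c mice. Cells came from tumours of female BALB/c mice aged 6-8 weeks, each given 1000000 4T1 cells, and the methods state that CD45+ leucocytes were sorted before 10x Genomics 3′ sequencing. By the labels, 2 samples (LC-2 and LC-5) were injected with PBS on day 7 and 1 sample (LC-6) with TIOs, an oncolytic preparation of dead macrophages that carry a light-activated drug load. The methods for tumour-infiltrating cells state 980 nm light (1.0 W cm-2, 5 min a session) on each of days 8 to 10 after each treatment. This was read to include the mice given PBS, and tumours were taken on day 13. The study's tumour growth experiments used a lower light dose. A further sample is titled PBS but its protocol names TIOs, so it was left in no group.

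The table joins 4 libraries, told apart only by a barcode suffix that no source used here links to a sample. The cells were therefore handled as 1 pooled sample, each library is given apart as a sample of unknown treatment, treatments are not compared, and p-values are not given. Intervals are exact 95% intervals (Poisson for levels, Clopper-Pearson for shares) and cover counting error only, not differences between mice. The Poisson intervals take UMIs as independent, so the spread between cells lies outside them as well. Of 33064 barcodes, 32133 held at least 300 genes and at most 15% mitochondrial UMIs (unique molecular identifiers, each tagging 1 captured RNA molecule). The median per kept cell ran from 2641.5 to 11698 UMIs by library, and 101 of 32963 barcode sequences (0.306%) occurred in more than 1 library. Cells were assigned to 15 classes by marker genes, none of which is a member, and a class is called X-like because the names rest on these markers alone. The gate placed 26692 cells (83.1%) in a class, and left out 1987 cells that passed for more than 1 class and 3454 that passed for none. Tumour-like, fibroblast-like, pericyte-like and endothelial-like cells made up 31.0% of gated cells despite the CD45 sort, and a UMI of Ptprc, which encodes CD45, was found in 13.3% of the 3746 tumour-like cells of library 1.

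Interferons are secreted alarm signals of infected or damaged tissue. Type I interferons (the α family and β) act through the receptor chains Ifnar1 and Ifnar2, which activate a complex with Stat2 and Irf9, and this complex binds a short promoter element, the interferon-stimulated response element (ISRE). The genes it switches on block viral entry, translation and replication, sense foreign nucleic acid and feed the signal forward. Interferon-γ, made mainly by T cells and natural killer cells, acts through another promoter element (GAS), and the guanylate-binding proteins and immunity-related GTPases among the members are known for responding to it. In tumours the same programme is known from myeloid cells that have taken up DNA or debris of dying cells.

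The promoter stretches below are shown because they carry the element that gives this list its name. They are reference sequence from RefSeq on GRCm38 (the mm10 build of the counts), read 5′ to 3′ on the strand of the gene, and capitals mark each match to the ISRE core GAAANNGAAA or to its other strand, TTTCNNTTTC. They are printed for some of the members with the most UMIs in their role, and for the neighbouring pair Ifit3 and Ifit3b. Each printed match lies upstream of the start site and outside any annotated exon. Gbp2, Oas1a, Oas3 and Ifi205 also held a match before the start site but are not printed. BALB/c bases may differ from this reference.
Isg15, chr4:156200845-156200926, minus strand: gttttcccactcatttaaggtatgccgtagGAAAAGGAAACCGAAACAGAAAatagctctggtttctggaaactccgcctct
Ifit1, chr19:34640755-34640843, plus strand: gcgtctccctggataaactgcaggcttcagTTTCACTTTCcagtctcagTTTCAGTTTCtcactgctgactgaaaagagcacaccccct
Ifit3, chr19:34583343-34583446, plus strand: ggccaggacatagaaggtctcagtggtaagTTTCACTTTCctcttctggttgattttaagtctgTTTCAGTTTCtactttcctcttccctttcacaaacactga
Ifit3b, chr19:34607739-34607842, plus strand: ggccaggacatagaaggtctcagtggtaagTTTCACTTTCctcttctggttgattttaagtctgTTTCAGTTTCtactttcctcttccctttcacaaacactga
Rsad2, chr12:26456533-26456602, minus strand: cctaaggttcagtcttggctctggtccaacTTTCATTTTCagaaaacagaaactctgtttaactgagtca
Bst2, chr8:71537557-71537632, minus strand: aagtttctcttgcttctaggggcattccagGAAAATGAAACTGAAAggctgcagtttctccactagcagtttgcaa
Stat2, chr10:128270248-128270315, plus strand: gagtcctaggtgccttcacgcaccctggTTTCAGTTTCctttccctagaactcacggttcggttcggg
Gbp7, chr3:142530253-142530322, plus strand: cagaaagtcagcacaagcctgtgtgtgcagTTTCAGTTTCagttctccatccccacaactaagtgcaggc
In Isg15 there were 3 matches, which overlap, and in Bst2 there were 2 that overlap. The stretches of Ifit3 and Ifit3b were identical at 104 of 104 bases. Across the windows of 300 bases (250 before the start site and 50 after it), 17 of the 29 members with an entry in the table held an ISRE core, against 3.44% of the 32851 promoters in the table. The GAS core TTCNNNGAA stood in 8 of the 29, against 8.30% of all promoters. A member was counted when any of its promoters (35 for the 29 members) held the core, while the shares over the table are per promoter. A match is only a run of letters in this window, and a window without one says nothing about the factor.

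The members made up 1308304 of 354742109 UMIs in kept cells, or 36.9 per 10000 UMIs. Isg15 alone supplied 16.3% of these UMIs, Bst2 12.2% and Rsad2 7.57%, and Ifi205 with 0.328% the least. By library, the level over all kept cells was 28.4, 24.1, 30.8 and 61.5 per 10000 UMIs. The libraries differed in their cell classes, so the classes are compared inside each library.

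Neutrophil-like cells had the highest pooled level in every library, at 77.1, 103, 127 and 144 member UMIs per 10000 in libraries 1 to 4. Their intervals reached from 75.7 to 78.6 in library 1 and from 143 to 146 in library 4. Without Isg15, endothelial-like and monocyte-like cells stood above them in library 1, while they stayed highest in the other 3 libraries. Monocyte-like cells followed at 60.8, 52.7, 104 and 120 per 10000. The neutrophil-like level was 1.27, 1.96, 1.22 and 1.21 times the monocyte-like level, so the gap was widest in library 2. Plasmacytoid dendritic-like cells reached 63.9 in library 2 and 70.6 in library 4, the libraries with at least 20 such cells. Most of this was Bst2, with 810 of 1107 member UMIs in library 2 and 2612 of 4261 in library 4. Macrophage-like cells lay at 36.0, 29.5, 49.7 and 48.8.

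T cell-like cells held 21.3, 10.1, 32.9 and 31.1 member UMIs per 10000, so that library 2 was the lowest for them, as for monocyte-like and macrophage-like cells. Fibroblast-like cells held 26.5, 14.2, 12.4 and 23.5, and tumour-like cells 25.8 in library 1 and 11.1 in library 2. Several neighbours in the order had overlapping intervals. Intervals that stood apart do not separate classes beyond the spread between their cells. In library 1 the quartiles of single cells were 22.0 and 78.1 in endothelial-like and 21.1 and 75.5 in monocyte-like cells. In library 1 fibroblast-like cells (25.9 to 27.1) overlapped with tumour-like cells (25.7 to 25.9) and type 1 dendritic-like cells (26.9 to 29.8), and in library 4 type 2 dendritic-like cells (31.8 to 34.3) overlapped with T cell-like cells (30.0 to 32.2). The plot of levels by class shows this order. T cell-like cells stood at place 8 of 9, 11 of 11, 4 of 10 and 7 of 10 in libraries 1 to 4, and endothelial-like cells at place 2 of 9, 6 of 11 and 5 of 10 in libraries 1 to 3. Endothelial-like cells held 66.1 in library 1, the next level after neutrophil-like cells there, but 17.7 in library 2 and 25.9 in library 3. These levels came from 57, 175 and 44 cells, and in library 1 Iigp1 and Gbp4 held 686 and 372 of the 3249 member UMIs.

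**Figure D1:**
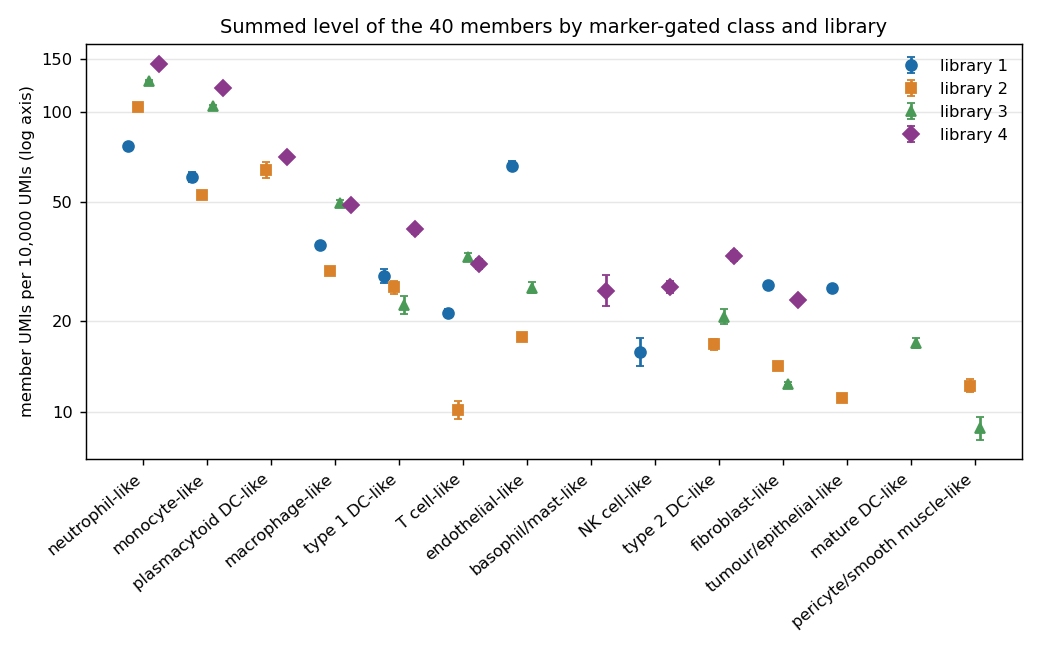
Member UMIs per 10000 UMIs (vertical, log axis) for each marker-gated class (horizontal, ordered by its median over libraries) in each of the 4 libraries, for classes with at least 20 cells. Points are pooled levels and bars exact 95% Poisson intervals; the neutrophil-like points (77.1 to 144) lie above every other class of their library.

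Free RNA in the droplets was gauged with S100a8, a neutrophil alarmin that was itself a gating marker. It reached 28205 to 47054 CPM (UMIs per 1000000 UMIs of the class) in neutrophil-like cells, and other classes held from 0.203 to 3.40% of that level of their library. Other genes stood higher outside their main class. Krt8, a keratin gene, lay at 2420 CPM in tumour-like cells of library 1. It lay at 289, 217 and 208 CPM in neutrophil-like, T cell-like and macrophage-like cells there. Col3a1, a collagen gene, lay at 9383 CPM in fibroblast-like and 553 in neutrophil-like cells of library 4. S100a8 thus sets no upper limit, and how far free RNA carried member transcripts between classes was not tested. Neutrophil-like cells were also the shallowest class, with medians of 1594 to 1936.5 UMIs per cell against 5273 to 8417 in monocyte-like cells. With every cell of at least 1000 UMIs thinned to 1000 UMIs, the neutrophil-like to monocyte-like ratios were 1.47, 1.90, 1.18 and 1.21. Shallower cells were left out, 132, 183, 163 and 85 neutrophil-like and 0, 4, 10 and 30 monocyte-like cells in libraries 1 to 4.

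To describe single members, the CPM of a gene in a class was divided by its CPM in all other gated cells of the same library. The others are pooled by UMIs, so deep fibroblast-like and tumour-like cells weigh most in them. Neutrophil-like cells held at least 2-fold more of 21, 26, 32 and 21 of the 40 members in libraries 1 to 4, against 11.9, 12.5, 14.4 and 12.6% of all genes tested. The median log2 ratio of the members was 1.07, 2.13, 2.15 and 1.16, beside -1.44, -1.66, -1.52 and -1.39 over all genes tested. In all 4 libraries the same 20 members were past 2-fold higher and 5 (Mx1, Ifi44, Ifi204, Ifi205 and Iigp1) past 2-fold lower. By library, 7, 6, 5 and 6 members were past 2-fold lower, below the 59.4, 61.9, 58.8 and 57.1% of all genes tested. The share of all genes past 2-fold in every library was not counted, for this or any other class.

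Monocyte-like cells held at least 2-fold more of 24, 22, 35 and 37 members, against 14.8, 10.1, 11.4 and 10.1% of all genes, and 17 of the members were past 2-fold in every library. These counts fell to 15, 10, 12 and 13 when each cell of at least 1000 UMIs was thinned to 1000 UMIs. The share of the genes then tested was 14.4, 10.1, 9.72 and 5.13%. For neutrophil-like cells the thinned counts were 21, 24, 25 and 14 members, against 9.88, 11.5, 11.1 and 10.4% of the genes then tested. Thinning gives the many shallow neutrophil-like cells the same weight per cell in the comparison as deep cells, and its part in the lower counts was not tested. At 3-fold instead of 2-fold, neutrophil-like cells were higher for 15, 23, 27 and 13 members, against 7.67, 8.68, 9.95 and 7.97% of all genes, and monocyte-like cells for 18, 10, 24 and 23, against 9.28, 4.51, 5.96 and 4.59%. Macrophage-like cells were past 2-fold higher for 13, 8, 12 and 0 members, against 13.8, 11.6, 11.7 and 6.6% of all genes. They were past 2-fold lower for 1, 3, 2 and 9 members, against 30.8, 33.3, 37.8 and 31.8% of all genes, and the 9 of library 4 held 6 of the GTPases. The other gated cells of library 4 held 2809 monocyte-like cells, the most of any library, and the part of this in these counts was not tested. T cell-like cells were past 2-fold higher for 2, 5, 10 and 3 members, against 16.5, 15, 21.1 and 17.7% of all genes. They were past 2-fold lower for 10, 27, 7 and 19 members, against 32.9, 44, 33.3 and 37.4% of all genes, and in library 2 the median log2 ratio was -1.79 for the members and -0.57 for all genes. In endothelial-like cells 16 members were past 2-fold higher in library 1 and 2 in library 2, against 18.9 and 13.9% of all genes, while 4 and 16 were past 2-fold lower, against 35.1 and 26.1%. In plasmacytoid dendritic-like cells of library 4, 2 members (Gbp4 and Bst2) were past 2-fold higher, against 19.3% of all genes. Past 2-fold lower there were 22 members, against 40.3% of all genes. Fibroblast-like cells were read in the other direction, with 8, 28, 36 and 36 members at least 2-fold lower against 25.5, 23.5, 24.7 and 21.5% of all genes.

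The members were not led by a common class. Of the 40 members, 12 had their highest CPM in neutrophil-like cells of every library, 7 in monocyte-like cells and 1 (Ifi205) in type 1 dendritic-like cells. The other 20 changed leading class between libraries, and endothelial-like cells led 15 members in library 1 (57 cells) but no more than 2 in any other. The heat map of members by class shows these blocks. Leads go by the CPM value alone, whether or not counting intervals overlapped. Close leads, as in library 1 with its 81 monocyte-like cells, are therefore not settled. How many of all genes have 1 leading class in every library, or are led by endothelial-like cells in library 1, was not counted.

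**Figure D2:**
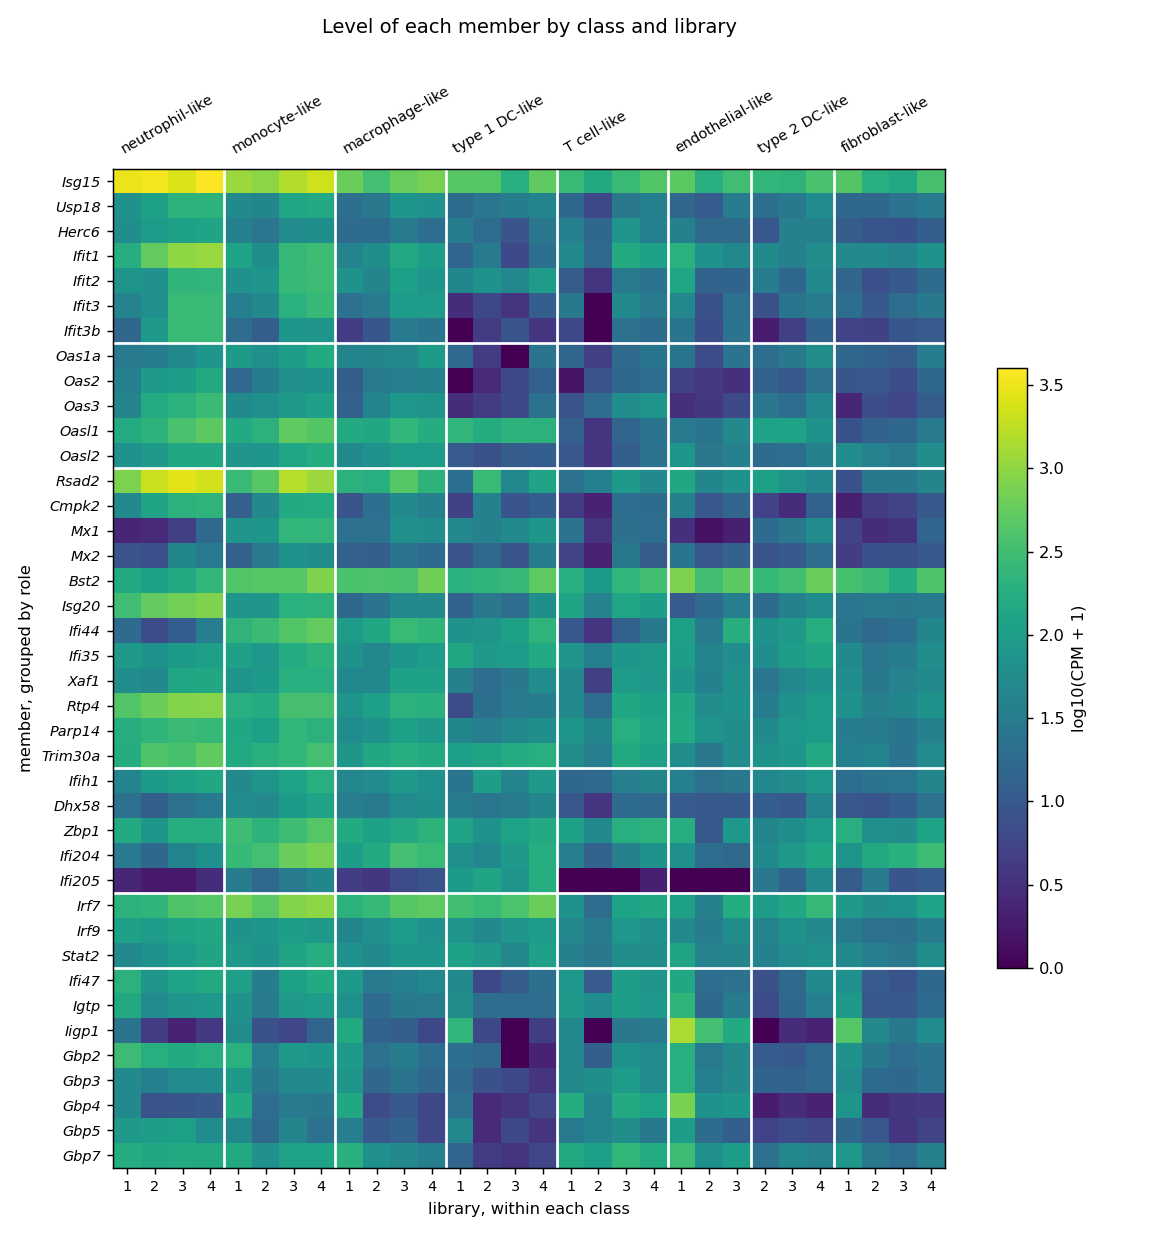
Level of each of the 40 members (rows, grouped by role with white lines) as log10(CPM + 1), by class and library (columns, libraries 1 to 4 within a class), for classes with at least 20 cells in 3 or more libraries. Isg15 and Rsad2 are brightest in neutrophil-like cells, Mx1, Ifi44 and Ifi204 in monocyte-like cells, and Iigp1 and Gbp4 in endothelial-like cells of library 1.

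The IFIT and ISG15 system holds 7 members. Isg15 is a ubiquitin-like protein that is attached to other proteins after interferon exposure. In neutrophil-like cells Isg15 lay at 3083, 3421, 2469 and 3762 CPM in libraries 1 to 4, in monocyte-like cells at 1144, 944, 1511 and 2182, and in macrophage-like cells at 620, 338, 580 and 723. The neutrophil-like values lay above the highest value of any other class in all libraries, with the highest in library 4. Fibroblast-like cells held 434, 181, 146 and 355 CPM and T cell-like cells 279, 154, 263 and 416. The log2 ratio of neutrophil-like to other gated cells was 3.41, 3.99, 3.36 and 1.99 for Isg15.

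The IFIT proteins bind viral RNA that lacks the host cap and stop its translation. Ifit1 differed between libraries more widely than Isg15 did, with 173, 550, 985 and 1105 CPM in neutrophil-like cells and 123, 60.8, 247 and 301 in monocyte-like cells. In endothelial-like cells Ifit1 lay at 195, 69.9 and 46.8 CPM in libraries 1 to 3, which made them its leading class in library 1. Ifit2 lay at 72.5, 65.6, 225 and 231 CPM in neutrophil-like cells and at 64.7, 75.1, 258 and 293 in monocyte-like cells, so these classes were close. Ifit3 lay at 39.2, 65.2, 264 and 266 CPM in neutrophil-like cells and at 34.7, 51.5, 198 and 257 in monocyte-like cells. Its neighbour Ifit3b was more lopsided, with 14.5, 88.5, 263 and 273 CPM against 18.5, 11.2, 77.4 and 71.2. Of the 50-base words in the last 500 bases of Ifit3 transcripts, 14.9% also occur in Ifit3b, so some reads of the pair cannot be assigned. The 4 IFIT members lie within chr19:34550694-34650009.

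Usp18 removes Isg15 from proteins and also damps the receptor. It lay at 66.0, 114, 214 and 209 CPM in neutrophil-like cells, the class with its highest level in every library, and at 50.9, 43.4, 133 and 146 in monocyte-like cells. Herc6, the ligase that attaches Isg15 in mice, lay at 60.2, 92.1, 114 and 126 CPM in neutrophil-like cells and at 17.1 to 29.2 in macrophage-like cells. Herc6 shares 24.5% of its 3′ words with the overlapping gene model Gm45193. For the whole group, neutrophil-like cells held 35.1, 44.0, 45.3 and 59.7 UMIs per 10000, monocyte-like cells 14.7, 12.1, 24.8 and 33.1, and fibroblast-like cells 5.48, 2.75, 2.52 and 5.19.

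The OAS family makes a small messenger from ATP on sensing double-stranded RNA, which activates an RNA-cutting enzyme. Its 5 members split between classes. Oas3 lay at 42.8, 163, 206 and 287 CPM in neutrophil-like cells against 50.9, 62.7, 87.8 and 114 in monocyte-like cells, so neutrophil-like cells were higher in 3 of 4 libraries. Oas2 lay at 35.5, 84.2, 101 and 154 CPM in neutrophil-like cells, the highest class in all libraries. Oas1a ran the other way, with 90.2, 63.3, 103 and 159 CPM in monocyte-like cells and 29.7, 32.7, 50.8 and 77.6 in neutrophil-like cells, but 56.1% of its 3′ words also occur in Oas1g and its level is uncertain for that reason.

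Oasl1, which lacks the enzyme activity and restrains translation of Irf7, lay at 165, 213, 369 and 499 CPM in neutrophil-like cells, 157, 202, 522 and 428 in monocyte-like cells and 155, 137, 242 and 169 in macrophage-like cells. Type 1 dendritic-like cells held 235, 170, 209 and 206 CPM of Oasl1, above neutrophil-like and monocyte-like cells in library 1 and below both in the other libraries. Oasl2 lay at 65.3, 86.4, 140 and 142 CPM in neutrophil-like cells and at 74.0, 76.3, 132 and 166 in monocyte-like cells. Fibroblast-like cells held 57.1, 38.2, 30.2 and 56.5 CPM of Oasl2, more than T cell-like cells (8.38, 2.49, 11.5 and 22.2) in every library.

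Among the 12 other effectors, Rsad2 (viperin) makes a chain-terminating nucleotide that stops viral polymerases. Rsad2 lay at 781, 2034, 2812 and 2250 CPM in neutrophil-like cells and at 275, 465, 1598 and 1126 in monocyte-like cells. It was low in the stroma, at 7.09, 27.4, 27.4 and 42.7 CPM in fibroblast-like cells. Cmpk2, its neighbour on chromosome 12 that supplies the nucleotide, was also higher in neutrophil-like than in monocyte-like cells of every library, at 50.03, 126, 202 and 220 CPM in neutrophil-like cells and 11.6, 47.8, 158 and 161 in monocyte-like cells. Their log2 ratios of neutrophil-like to other cells were 4.11, 5.04, 4.52 and 2.53 for Rsad2 and 3.52, 4.16, 3.82 and 1.91 for Cmpk2.

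Isg20 is an exonuclease that degrades single-stranded RNA. It lay at 308, 547, 691 and 807 CPM in neutrophil-like cells, at 74.0, 73.2, 196 and 204 in monocyte-like cells and at 15.6, 23.5, 45.1 and 47.9 in macrophage-like cells, where it was the only member past 2-fold lower in all libraries. Rtp4, a transporter chaperone, lay at 412, 612, 846 and 869 CPM in neutrophil-like cells and at 185, 163, 347 and 346 in monocyte-like cells. Trim30a, a restrainer of inflammatory signalling that shares 19.9% of its 3′ words with Trim30d, lay at 169, 403, 361 and 529 CPM in neutrophil-like cells and at 155, 189, 239 and 331 in monocyte-like cells. Parp14, an ADP-ribosyltransferase, lay at 176, 228, 284 and 260 CPM in neutrophil-like cells and at 143, 110, 237 and 203 in monocyte-like cells. For these 4 genes the neutrophil-like level was the higher in each library.

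Mx1 and Ifi44 showed the opposite arrangement. Mx1 is a GTPase against influenza and related viruses, and many inbred mouse strains carry a defective copy. It lay at only 1.45, 1.81, 3.83 and 16.1 CPM in neutrophil-like cells against 74.0, 78.8, 243 and 231 in monocyte-like cells and 20.7, 21.5, 63.7 and 57.4 in macrophage-like cells. Ifi44, an interferon-induced protein of the cytoplasm, lay at 17.4, 5.59, 11.0 and 33.1 CPM in neutrophil-like cells against 217, 286, 413 and 549 in monocyte-like cells. Pooled Isg15 and Rsad2 levels were highest in this same neutrophil-like class, and the genes were not compared cell by cell. The log2 ratio of neutrophil-like to other gated cells was -2.08, -1.85, -2.32 and -2.41 for Mx1. For Ifi44 it was -1.72, -2.90, -2.24 and -2.75, beside medians of -1.44, -1.66, -1.52 and -1.39 over all genes tested. Mx2, next to Mx1 on chromosome 16, lay at 7.25, 6.58, 44.2 and 30.9 CPM in neutrophil-like cells and at 11.6, 29.8, 67.9 and 59.0 in monocyte-like cells.

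Bst2 (tetherin) holds budding virus at the cell surface and is also known as an antigen of plasmacytoid dendritic cells. Bst2 lay at 4678 CPM in library 2 and 4326 CPM in library 4 in plasmacytoid dendritic-like cells, where the other 39 members together were below it. It lay at 418, 467, 445 and 808 CPM in monocyte-like cells, 373, 394, 370 and 653 in macrophage-like cells and 157, 113, 152 and 242 in neutrophil-like cells. In tumour-like cells of library 1, Bst2 at 684 CPM exceeded Isg15 at 212. Xaf1, a pro-apoptotic partner of the inhibitor XIAP, lay at 57.3, 50.02, 132 and 137 CPM in neutrophil-like cells and 71.7, 91.8, 186 and 183 in monocyte-like cells. Ifi35, an interferon-induced leucine zipper protein, lay at 68.9 to 107 CPM in neutrophil-like cells and at 83.2 to 214 in monocyte-like cells.

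The 5 sensors together made up 3.27, 1.90, 2.75 and 2.81% of member UMIs in neutrophil-like cells against 11.5, 13.0, 10.9 and 12.8% in monocyte-like cells. Ifi204, a DNA-binding protein of the nucleus that feeds the STING pathway, lay at 257, 335, 592 and 735 CPM in monocyte-like cells and at 29.0, 14.8, 40.9 and 62.9 in neutrophil-like cells. Fibroblast-like cells held 72.3, 152, 190 and 290 CPM of Ifi204, more than neutrophil-like cells in every library. Zbp1, a sensor of Z-form nucleic acid that can start necroptosis, lay at 305, 212, 306 and 450 CPM in monocyte-like cells and at 160, 78.1, 171 and 174 in neutrophil-like cells. It was also present at 181, 62.4, 57.4 and 121 CPM in fibroblast-like cells.

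Ifih1 (MDA5), a sensor of long double-stranded RNA, lay at 48.5, 71.4, 122 and 182 CPM in monocyte-like cells and at 40.6, 91.1, 115 and 137 in neutrophil-like cells, with no constant order. Dhx58 (LGP2), which adjusts that sensor, lay at 53.2, 48.4, 90.9 and 118 CPM in monocyte-like cells and at 21.0, 11.4, 21.4 and 29.8 in neutrophil-like cells. Ifi205, a relative of Ifi204, had its highest level in type 1 dendritic-like cells of every library, at 89.7, 124, 73.9 and 174 CPM against 32.4, 16.8, 29.8 and 43.3 in monocyte-like cells and at most 1.95 in neutrophil-like cells. Of its 3′ words 39.6% occur in Ifi211 or Mndal, so its level is uncertain.

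The transcription factors carry the signal to the promoters shown above. Irf7, which amplifies interferon-α production, lay at 735, 482, 865 and 971 CPM in monocyte-like cells, the highest class in each library, and at 203, 226, 406 and 443 in neutrophil-like cells. Type 1 dendritic-like cells held 325, 277, 378 and 626 CPM and plasmacytoid dendritic-like cells 358 in library 2 and 523 in library 4. Irf9 lay at 114, 96.2, 125 and 138 CPM in neutrophil-like cells and at 67.0, 79.4, 98.9 and 84.9 in monocyte-like cells. Stat2 lay at 51.5, 67.8, 98.0 and 124 CPM in neutrophil-like cells and at 87.8, 67.6, 126 and 171 in monocyte-like cells. These partners in 1 complex thus differed, since Irf9 was higher in neutrophil-like cells of every library and Stat2 was higher in monocyte-like cells of all but library 2.

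The 8 interferon-inducible GTPases attack the vacuoles of intracellular pathogens. In library 1 their level was the highest of the 4 libraries in neutrophil-like, monocyte-like, macrophage-like, fibroblast-like and type 1 dendritic-like cells, although the IFIT and ISG15 group of neutrophil-like cells was lowest there. Macrophage-like cells held 8.36 GTPase UMIs per 10000 in library 1 and 1.75, 2.01 and 1.59 in libraries 2 to 4. Fibroblast-like cells held 8.89, 1.49, 1.02 and 1.77, and endothelial-like cells 32.9, 5.75 and 4.98 in libraries 1 to 3. Tumour-like cells held 7.09 in library 1 and 0.785 in library 2. T cell-like cells departed from this, with 6.67, 3.25, 8.42 and 6.05 and the highest value in library 3. Natural killer-like cells (30 in library 1 and 87 in library 4) also departed, with no higher GTPase level in library 1 than in library 4. The plot of roles by library sets these values beside those of the other groups.

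**Figure D3:**
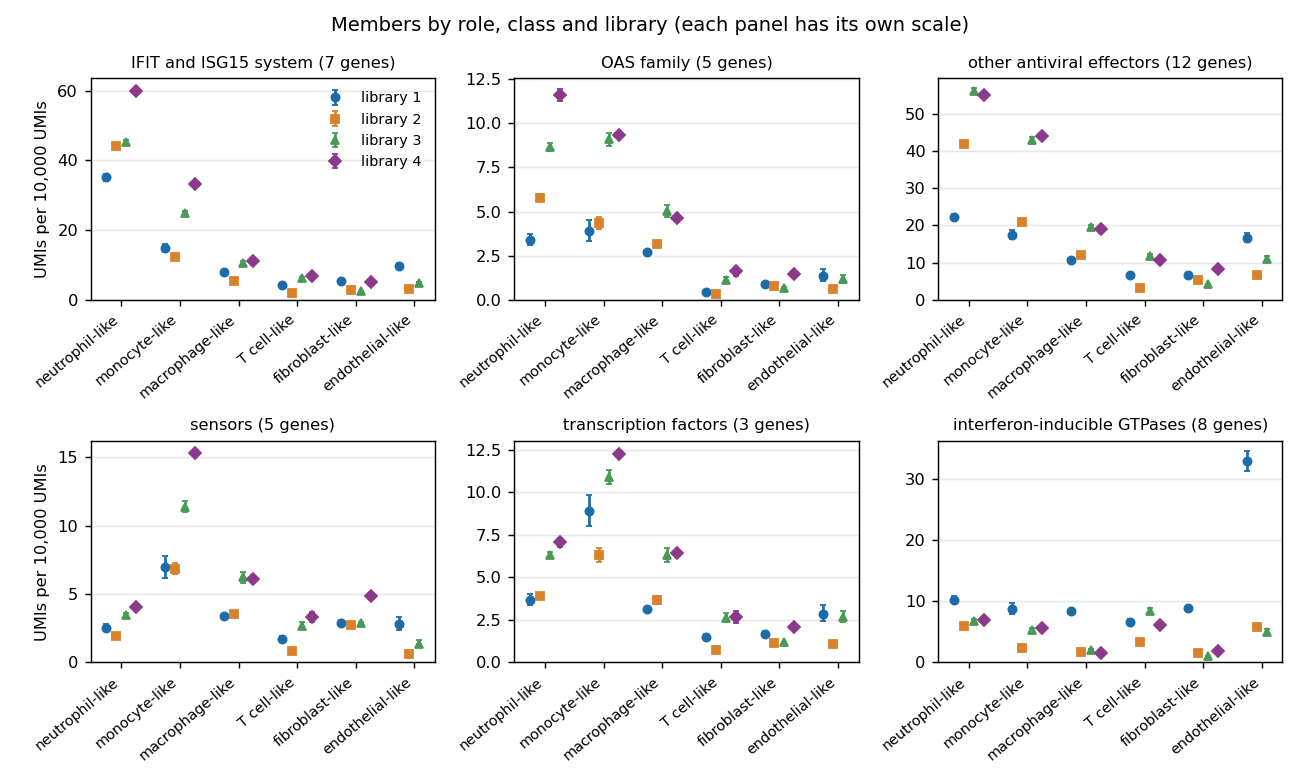
Summed level per 10000 UMIs of each of the 6 role groups (panels, each with its own vertical scale from 0) in 6 classes (horizontal) and up to 4 libraries (symbols), with exact 95% Poisson intervals. Library 1 is highest for the GTPases in neutrophil-like (10.2), monocyte-like (8.76), macrophage-like (8.36), fibroblast-like (8.89) and endothelial-like cells (32.9), and is not the highest in the other panels except in endothelial-like cells and, for the IFIT and ISG15 system, narrowly in fibroblast-like cells.

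Iigp1 disrupts the vacuole membrane of such pathogens. It lay at 1395, 329 and 157 CPM in endothelial-like cells, 447, 48.9, 27.3 and 56.1 in fibroblast-like cells, 151, 13.0, 11.3 and 5.00 in macrophage-like cells, and 23.2, 3.29, 1.18 and 3.06 in neutrophil-like cells. Endothelial-like cells were past 2-fold for Iigp1 and Gbp4 in libraries 1 and 2, and neutrophil-like and monocyte-like cells past 2-fold lower for Iigp1 in all 4. Gbp4 lay at 756, 67.1 and 80.0 CPM in endothelial-like cells, 141, 5.91, 9.29 and 5.12 in macrophage-like cells and 91.9 and 1.25 in tumour-like cells of libraries 1 and 2. T cell-like cells held 169, 41.1, 155 and 123 CPM of Gbp4. Of the 3′ words of Gbp4, 14.2% occur in other Gbp genes.

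Gbp2 and Gbp7, the group's members with the most UMIs, are guanylate-binding proteins. Gbp2 lay at 289, 177, 157 and 188 CPM in neutrophil-like cells, its highest class in every library, and at 199, 34.1, 87.8 and 75.7 in monocyte-like cells. Gbp7 lay at 170, 140, 157 and 152 CPM in neutrophil-like cells and at 155, 106, 239 and 162 in T cell-like cells. Gbp5, which helps inflammasome assembly, lay at 85.6, 101, 111 and 55.4 CPM in neutrophil-like cells. It was the only member past 2-fold higher in T cell-like cells of every library, at 28.5, 41.1, 58.5 and 27.5 CPM.

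Gbp3 lay at 35.4 to 55.1 CPM in neutrophil-like cells and at 183, 34.7 and 48.8 in endothelial-like cells. The immunity-related GTPase Ifi47 lay at 204, 73.4, 121 and 151 CPM in neutrophil-like cells and at 87.0, 30.8, 35.2 and 46.2 in macrophage-like cells. Igtp lay at 153, 54.1, 75.3 and 82.9 CPM in neutrophil-like cells and at 228, 15.1 and 31.2 in endothelial-like cells. GTPases of the same type that are not members also stood high in library 1 of endothelial-like cells, where Irgm1 lay at 134, 45.4 and 60.3 CPM.

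Single cells of a class varied widely. Each cell was thinned to 1000 UMIs, which left out 132, 183, 163 and 85 of the 734, 3108, 3094 and 1935 neutrophil-like cells. The median neutrophil-like cell then held 5, 4, 5 and 7 member UMIs, the cell at the 90th percentile 20.9, 30, 37 and 39, and the cell at the 99th percentile 55.99, 67, 78 and 71. No member UMI was found in 8.64, 15.4, 15.2 and 7.08% of them. The tenth of cells with the most member UMIs held 41.5, 43.9, 43.6 and 37.4% of all member UMIs of the class. Monocyte-like cells were less spread, with medians of 4, 3, 6 and 8 and 99th percentiles of 21.4, 33.3, 47 and 47.2. The median share per cell, not thinned, was 45.8, 41.4, 53.9 and 75.1 per 10000 UMIs in neutrophil-like cells and 45.1, 27.5, 63.8 and 82.9 in monocyte-like cells. By the median cell, then, monocyte-like cells stood above neutrophil-like cells in libraries 3 and 4, while the pooled level ran the other way.

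**Figure D4:**
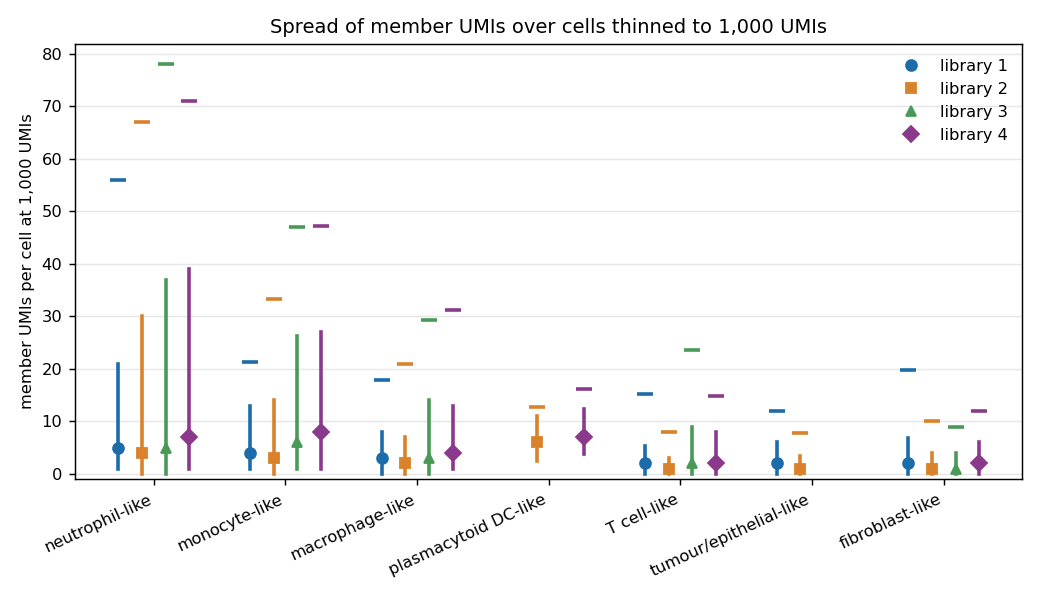
Member UMIs per cell after thinning to 1000 UMIs (vertical) in 7 classes (horizontal) and each library (symbols). Symbols are medians, vertical lines run from the 10th to the 90th percentile and short bars mark the 99th percentile, which reached 55.99 to 78 in neutrophil-like cells and 9 to 19.8 in fibroblast-like cells.

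A cell was called rich in members when it held at least 5 distinct members at 1000 UMIs. Of neutrophil-like cells 33.9% (30.1 to 37.8), 36.8% (35.1 to 38.6), 45.9% (44.0 to 47.7) and 54.5% (52.2 to 56.8) were rich in libraries 1 to 4. Before thinning the shares were 47.0, 49.3, 59.1 and 66.9%. Monocyte-like cells were rich in 39.5% (28.8 to 51.0), 28.4% (23.0 to 34.2), 54.3% (49.0 to 59.6) and 62.0% (60.2 to 63.8). In library 1 the intervals of these classes overlapped. Macrophage-like cells were rich in 21.5, 15.8, 31.0 and 33.7%, T cell-like cells in 9.22, 2.63, 19.5 and 25.0%, and fibroblast-like cells in 12.7, 4.30, 4.09 and 9.94%. No class is known to lack these genes, so none serves as a background for free RNA. The lowest shares were 0 of 22 basophil-like or mast-like cells of library 4, with an exact upper limit of 15.4%, and 1 of 77 pericyte-like cells (1.30%) of library 2.

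Levels of some members with many UMIs, and of some role groups, were correlated across neutrophil-like cells. Pairs with low members such as Mx1 and Iigp1, and a baseline from other genes, are not given here. As a description over cells that share a library, the Pearson correlation of Isg15 with Rsad2 (log1p of thinned counts) was 0.46, 0.66, 0.70 and 0.71, over 602, 2925, 2931 and 1850 cells. Rsad2 with Ifit1 gave 0.50, 0.62, 0.69 and 0.67. Between role groups, the IFIT and ISG15 system and the other effectors gave 0.60, 0.77, 0.82 and 0.80, and the IFIT and ISG15 system and the GTPases 0.44, 0.52, 0.58 and 0.57. In macrophage-like cells the last pair gave only 0.09, 0.25, 0.25 and 0.28. Counts per thinned cell are small, which lowers such values.

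Cells were also split by genes outside the list, such as Cd274, which encodes the checkpoint ligand PD-L1 and is itself interferon-inducible. Neutrophil-like cells with a Cd274 UMI held 98.1, 128, 162 and 228 member UMIs per 10000 against 58.8, 82.8, 99.1 and 127 in those without, with medians of 1732 to 2110 and 1458 to 1856 UMIs per cell. Retnlg, a gene of freshly released neutrophils, had a UMI in 52.3, 24.0, 37.4 and 40.4% of neutrophil-like cells, and in 3.58, 2.63, 4.22 and 1.91% of the deeper T cell-like cells (medians of 3607 to 5936 UMIs), which should lack it. In the still deeper fibroblast-like cells (medians of 14106 to 37477 UMIs) the shares were 8.43, 7.76, 21.6 and 16.8%. Neutrophil-like cells with a Retnlg UMI held 58.3, 98.0, 124 and 129 member UMIs per 10000 against 109, 105, 129 and 157 in those without, with medians of 1829 to 2103 and 1446 to 1848 UMIs per cell. The gap was small in libraries 2 and 3, and the split by a single UMI also follows depth. Cd163 (a scavenger receptor) had a UMI in 1.82, 46.5, 40.5 and 40.8% of macrophage-like cells. It had a UMI in 0.275, 5.26, 0.264 and 3.82% of T cell-like cells and in 0, 9.10, 1.98 and 12.2% of fibroblast-like cells. Macrophage-like cells with it lay at 51.4, 28.0, 37.5 and 39.6 against 35.7, 31.0, 58.0 and 55.3, which reversed in library 1 where only 26 cells held a Cd163 UMI. Among T cell-like cells of library 1, cells with Cd8 and no Cd4 held 18.1 (17.4 to 18.8) and cells with Foxp3 37.1 (33.4 to 41.02). Other libraries, cell numbers and depths are not given for this split, so it describes library 1 only.

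The upstream genes were then read from lists of the pathway. Of 20 interferon ligand genes, 15 had a UMI in kept cells, and the α genes were close to undetected. Ifna2 had the most of them, with 31 UMIs in 15 cells, and the other α genes held at most 10 UMIs each, mostly in type 1 dendritic-like cells of library 2. Ifna1 and Ifna9 held 1 UMI, Ifna12 and Ifna13 2, Ifna5 6, Ifna4 8 and Ifna16 10. The λ genes Ifnl2 and Ifnl3 held 16 and 10 UMIs, and Ifne, Ifnk and Ifnz 4, 14 and 2.

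Ifnb1 was the type I ligand with the most UMIs, 751 in 292 cells. In monocyte-like cells it lay at 2.31, 0.621, 16.3 and 8.71 CPM, which in libraries 3 and 4 came from 10 and 74 cells. Ifnb1 lay at 10.5, 5.91, 7.30 and 2.02 CPM in macrophage-like cells, from 53, 16, 8 and 7 cells. The highest level, 82.3 CPM in type 1 dendritic-like cells of library 2, came from 49 UMIs in 7 of 37 cells, and libraries 1, 3 and 4 held 2, 1 and 3 UMIs in that class. Neutrophil-like cells, where the members were highest, held 4, 3, 1 and 3 UMIs of Ifnb1 in 734, 3108, 3094 and 1935 cells. Plasmacytoid dendritic-like cells held 0 Ifnb1 UMIs in 26 cells of library 2 and 1 UMI in 88 cells of library 4.

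Ifng, the interferon-γ gene, was concentrated in T cell-like and natural killer-like cells. T cell-like cells held 810, 19.9, 28.1 and 84.7 CPM, and natural killer-like cells 208 in library 1 and 342 in library 4. Library 1 was thus the library with the most Ifng in T cell-like cells. It also had the highest GTPase level in the classes named above other than T cell-like and natural killer-like cells. Whether these values are linked was not tested. Cxcl9, a chemokine gene known for its response to interferon-γ, lay at 1746, 67.8 and 11.4 CPM in endothelial-like cells and at 371, 5.11, 0 and 2.62 in macrophage-like cells. Irf1, a factor that drives GTPase genes, lay at 523, 194, 389 and 202 CPM in neutrophil-like cells and 192, 162, 234 and 68.7 in macrophage-like cells.

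**Figure D5:**
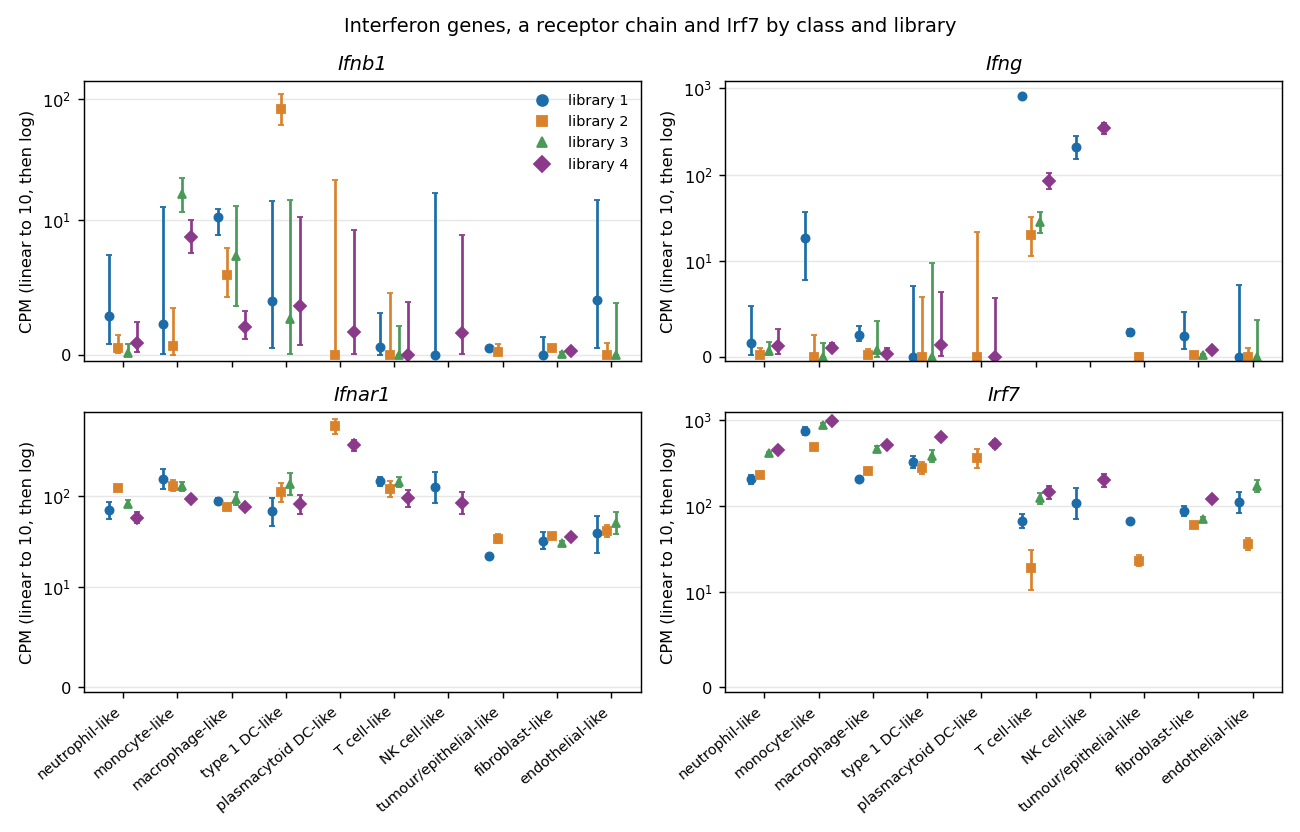
CPM of Ifnb1, Ifng, Ifnar1 and Irf7 (panels) in 10 classes (horizontal) and each library (symbols), with exact 95% Poisson intervals; the vertical axis is linear up to 10 CPM and logarithmic above it. Ifng is highest in T cell-like cells of library 1 (810 CPM), Ifnb1 in type 1 dendritic-like cells of library 2 (82.3 CPM) and Ifnar1 in plasmacytoid dendritic-like cells (589 and 363 CPM).

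Receptor chains were present in all main classes. Ifnar1 lay at 69.6, 124, 82.6 and 57.6 CPM in neutrophil-like cells, 155, 130, 128 and 92.2 in monocyte-like cells and 589 and 363 in plasmacytoid dendritic-like cells of libraries 2 and 4. Ifnar2 lay at 127, 181, 189 and 159 CPM in neutrophil-like cells, 109, 174, 176 and 163 in monocyte-like cells and 26.7 and 39.8 in tumour-like cells of libraries 1 and 2. Ifnar1 was thus lower in neutrophil-like than in monocyte-like cells of every library, and the Ifnar2 levels were close. In library 2 the Ifnar1 intervals overlapped (115 to 133 in neutrophil-like and 113 to 149 in monocyte-like cells).

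Among the 10 signalling genes, Socs3 (a feedback inhibitor) and Jak1 (the receptor kinase) had the most UMIs, and 2, 1, 3 and 1 of the 10 were past 2-fold higher in neutrophil-like cells against 4, 3, 4 and 3 in monocyte-like cells. Over all genes the shares past 2-fold higher were 11.9, 12.5, 14.4 and 12.6% and 14.8, 10.1, 11.4 and 10.1%. Socs3 lay at 479, 324, 355 and 408 CPM in neutrophil-like cells and at 710, 382, 328 and 196 in monocyte-like cells, and Jak1 at 225, 299, 264 and 270 and at 206, 252, 218 and 188. Of the 9 nucleic acid sensing genes, of which 8 or 9 could be compared, neutrophil-like cells were past 2-fold lower for 4, 3, 3 and 4, beside 59.4, 61.9, 58.8 and 57.1% of all genes, so these counts were no more than the share over all genes. Tmem173, which encodes STING, lay at 10.9, 5.10, 5.16 and 8.63 CPM in neutrophil-like cells and at 71.7, 62.7, 40.1 and 63.6 in monocyte-like cells. Ddx58 (RIG-I) went the other way, with 51.5, 112, 141 and 159 CPM in neutrophil-like cells and 37.0, 58.3, 81.4 and 117 in monocyte-like cells.

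A list of 25 other type I interferon-stimulated genes served as a comparison with the members. Monocyte-like cells were past 2-fold higher for 17, 15, 21 and 17 of them and neutrophil-like cells for 8, 11, 13 and 7, beside the same shares over all genes as above. In neutrophil-like cells 7, 7, 4 and 8 of them were past 2-fold lower, below the share over all genes in that direction. Ifitm3 and Ifitm2, membrane proteins that block viral entry, held the most UMIs. Ifitm3 lay at 3018, 2445, 3689 and 4754 CPM in neutrophil-like cells and at 5923, 4536, 6735 and 8123 in monocyte-like cells. Ifitm2 lay at 2944, 3137, 1827 and 3561 CPM in neutrophil-like cells and at 2044, 1859, 1784.5 and 2714 in monocyte-like cells. The classes thus stood in opposite order for these neighbouring genes in all 4 libraries, except that in library 3 the Ifitm2 levels were close. Of the 10 interferon-γ-inducible genes outside the list, neutrophil-like cells were past 2-fold higher for 2, 4, 4 and 3 and monocyte-like cells for 2, 3, 5 and 5, where 11.9 to 14.4% and 10.1 to 14.8% of all genes were.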

How the data were processed

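Single-cell 3′ RNA was counted for 4 samples as 1 matrix. The deposited UMI counts were made by the authors with Cell Ranger on mm10, whose version is 6.1.2 in the matrix header, 3.0.2 in the series design text and 2.1.1 in the submitters' processing notes. The series states 15603 cells, beside 33064 barcodes here and 32133 left by the filter used here (at least 300 genes, at most 15% mitochondrial UMIs). Library totals ran from 69255999 to 108646352 UMIs.

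A level is the summed UMIs of the members per 10000 UMIs of a class, and CPM is per 1000000. Each marker's log1p level was divided by its 50th-highest value, markers of a class were averaged, and a cell took the class with at least 3 markers, a score of at least 0.3 and a runner-up at no more than 0.75 of it. The gate was set after the counts were seen, and no doublet caller was run, so cells past several classes were left out. Folds compare summed counts of a class (at least 50 cells) with all other gated cells of its library, over genes with at least 20 UMIs. Genes named are those past 2-fold in every library, the leading members of each role and the most counted genes of each pathway list, of which 1 is not reported here. The members and lists were chosen with earlier results of these data known. As no source links libraries to samples, no group was tested and libraries are not replicates. The fold step was tested on simulated data. Copies were sought as shared 50-base words in the last 500 bases of transcripts. Python 3.11.15 with numpy 2.4.6, scipy 1.17.1 and pandas 2.3.3 was used.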

Additional observations from a re-analysis of the deposited data

Results flagged for a closer look

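Member UMIs were also present in barcodes that the comparisons did not use. Cells placed in no class, or passing for more than 1 class, held 29.0, 21.3, 24.2 and 70.8 member UMIs per 10000 UMIs in libraries 1 to 4. In library 4, 1028 of these cells had passed for more than 1 class. Barcodes with fewer than 300 genes, which were left out, held 19.7, 24.5, 34.5 and 22.1 per 10000, from 149, 243, 183 and 127 member UMIs. Both sets were listed because they lay outside the classes compared and above the limit that a count of 0 allows.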

How the results depend on the processing

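No paired analysis was possible because no library could be linked to a sample and no group was tested. Of 140 recomputed values that answer a comparison, 96 kept their size within counting error or 1.5 times, 36 moved, 7 counts fell and 1 reversed. The values kept include the member counts without a UMI minimum, which could not change because all members had passed that minimum. Of 974 further levels and shares of classes and role groups, 401 stayed within counting error and 573 moved. A value moved when it left its counting interval, which is narrow for classes with many UMIs. Settings that leave out members can only lower a level, and the cause of the other moves was not tested. Among member levels, 1 of 40 with cells of more than 1 class kept and 2 of 40 without Isg15 changed by more than 1.5 times. No member level did so in the other settings. The CPM values of single genes were not recomputed. Without Isg15, neutrophil-like cells were highest in 3 of 4 libraries, the neutrophil-like to monocyte-like ratio was 0.939 in library 1 (reversed), 1.60, 1.15 and 1.09 in the others, and the shares of neutrophil-like cells rich in members were 25.9, 31.7, 41.9 and 49.8%. The ratio was 1.498 and 2.07 in libraries 1 and 2 without the deepest 5% of cells, 1.89 and 1.24 in libraries 2 and 3 with cells of more than 1 class kept, 1.42, 1.88 and 1.17 in libraries 1 to 3 as a mean of per-cell shares, and 1.47, 1.90 and 1.18 there with cells thinned to 1000 UMIs. Counts of members at least 2-fold higher in monocyte-like cells were 15, 10, 12 and 13 after that thinning (14.4, 10.1, 9.72 and 5.13% of genes tested). At 3-fold they were 10 and 23 in libraries 2 and 4 (4.51 and 4.59% of genes), and 13 for neutrophil-like cells of library 4 (7.97%). Rich shares were 43.9, 44.4, 53.5 and 62.7% at 4 members, 25.4, 31.0, 40.6 and 48.4% at 6 members, and 53.2, 55.7, 64.2 and 76.2% at 2000 UMIs. The macrophage-like GTPase level was 8.54 and 1.87 in libraries 1 and 4 as a mean of per-cell shares, and 7.49, 1.54, 1.69 and 1.41 without Gbp2. Shallow neutrophil-like cells limit what a single cell can show.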

Other observations

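The level of all members over kept cells was 61.5 per 10000 UMIs in library 4 and between 24.1 and 30.8 in the other 3 libraries. Library 4 also held 2809 monocyte-like cells, against 81 to 369 in the others. No label ties these values to a treatment.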
